A study of Mus musculus with 4 samples.

Results

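The hepatic carboxylesterases were described as 10 genes, *Ces1b*, *Ces1c*, *Ces1d*, *Ces1e*, *Ces1f*, *Ces1g*, *Ces2a*, *Ces2e*, *Ces3a* and *Ces3b*, chosen by name among the 35739 genes of the level table (TPM, a transcript level scaled to length and to library size). The values came from RNA-seq of liver, with 2 libraries from WT mice (replicates 2 and 3) and 2 libraries from *Usp21* KO mice (replicates 1 and 3). The KO mice carried a constitutive deletion of catalytic-domain exons of *Usp21*, which encodes a ubiquitin-specific protease. The allele was made by homologous recombination in 129/Sv ES cells, bred to C57BL/6, stripped of its selection cassette by Flp and recombined by Cre, and WT and KO mice were littermates. By the methods of the study, its mice were 10 to 11 weeks old, fed a normal diet and housed alike under a daily light cycle. The Cre line and the sex of the mice behind these libraries are not given in the sources used here. All groups shared the tissue and the RNA preparation, and no treatment was labelled.

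Carboxylesterases are serine hydrolases that cleave ester bonds in drugs and other foreign compounds and in triglycerides, cholesteryl esters and related lipids. Most are held in the lumen of the endoplasmic reticulum of hepatocytes by a short signal at the C-terminus, while some lack it and are secreted into blood. The mouse genes arose by tandem duplication, and those made in liver stand among the abundant transcripts of the hepatocyte.

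In the GENCODE M21 annotation of GRCm38, all 10 genes lay on chromosome 8 in 2 clusters. The 6 *Ces1* genes lay on the minus strand within chr8:93056728-93337308, and the 4 *Ces2* and *Ces3* genes on the plus strand within chr8:104734003-105093929, with 11.4 Mb between the clusters. The longest gene, *Ces1g*, spanned 34940 bp with 14 coding exons, and the shortest, *Ces2a*, spanned 7632 bp with 12 coding exons.

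The sequence around the active-site serine is what makes these genes one enzyme family. The capitals below mark codons centred on that serine, read from the GENCODE coding sequences.
*Ces1b*: gtctttGGGTCATCAGCAGGAggtgtc
*Ces1d*: atctttGGAGAGTCAGCAGGAggtttc
*Ces2a*: atatttGGAGTCTCAGCAGGAggtaca
*Ces3a*: atcttcGGTAACTCTGCTGGAggcatt
*Ces3b*: atcttcGGTAACTCTGCTGGAggcatg
All 10 genes held in frame a glycine codon, the serine codon in the middle and a closing glycine codon, with the serine at codon 221 in *Ces1d* and at codon 232 in *Ces3a* and *Ces3b*. Over the printed stretch, *Ces1f* differed from *Ces1d* at 1 base, *Ces1c* at 3 bases and *Ces3a* at 9 bases.

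The end of the coding sequence can carry the signal that holds a product in the endoplasmic reticulum. Where each product is held was not measured here. The capitals below mark the last codons before the stop codon.
*Ces1c*: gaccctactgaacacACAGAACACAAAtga
*Ces1b*: gaccctactgagcacAGAGAACACAAAtga
*Ces1d*: ccatcccacagggaaCATGTTGAGCTCtga
*Ces1g*: tcatcccatagggaaCATGTTGAACTGtga
*Ces2a*: ggttctcaggacaagCATGCAGAGCTGtag
*Ces3a*: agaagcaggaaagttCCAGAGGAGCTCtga
*Ces3b*: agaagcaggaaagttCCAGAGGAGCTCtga
*Ces1d*, *Ces1e*, *Ces1f*, *Ces1g*, *Ces2a* and *Ces2e* ended in a histidine codon, any codon, then a glutamate and a leucine codon, the retrieval pattern of proteins held in the endoplasmic reticulum. *Ces3a* and *Ces3b* shared the glutamate and leucine codons without the histidine codon, and *Ces1b* and *Ces1c* ended in neither form. *Ces1c* is known as a secreted esterase of mouse plasma.

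Identity of the coding bases followed the subfamily names. It was 95.3% between *Ces3a* and *Ces3b*, 91.2% between *Ces1b* and *Ces1c* and 83.3% between *Ces2a* and *Ces2e*. The 15 pairs within *Ces1* ranged from 74.5% to 91.2%, and the 28 pairs between subfamilies from 62.8% to 65.3%.

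**Figure D1:**
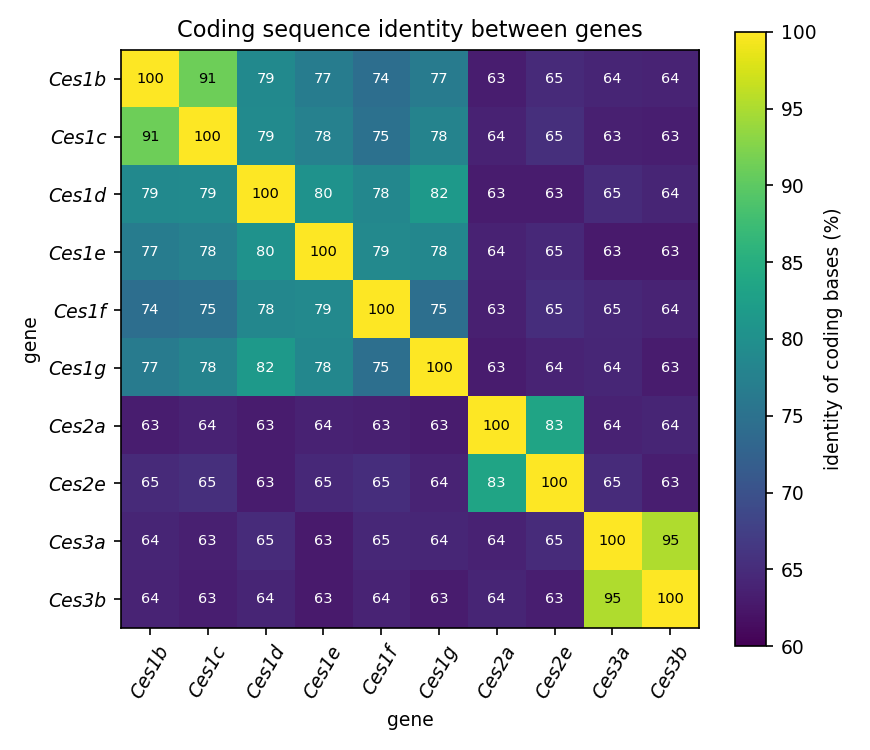
Identity of coding bases (%, colour scale from 60 to 100) for each pair of the 10 genes, with rows and columns in the same order. The pairs between subfamilies stand between 62.8% and 65.3%, and *Ces3a* with *Ces3b* at 95.3% is the most alike pair.

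Such likeness bears on the levels below, since a read from a shared stretch cannot be placed on one gene by sequence alone. Of the 31-base words of the annotated transcripts of *Ces3a*, 34.9% also occurred in *Ces3b*, and 35.7% of those of *Ces3b* occurred in *Ces3a*. *Ces1b* shared 19.8% of its words with *Ces1c*, and *Ces2a* shared 24.7% with the pseudogene *Gm7208*, which was listed at 0 TPM. The levels of these paralogs, and how expression was divided between them, are therefore uncertain. For *Ces1d*, *Ces1e*, *Ces1f*, *Ces1g* and *Ces2e* the share of words found in any other gene was between 3.36% and 8.68%.

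The targeted gene was lower in the KO libraries. *Usp21* stood at 4.07 and 6.29 TPM in WT and at 1.64 and 2.93 TPM in KO, with groups that did not overlap (log2 fold change −0.92 ± 0.33 SE, adjusted p = 0.464 by limma with Benjamini-Hochberg). These levels cover the whole transcript and not the deleted exons alone. TPM does not keep depth. The deposited CPM table held whole multiples of 1 read and gave 102898 to 148164 reads per library. It listed 2814 to 3513 genes above 0 per library, compared with 12876 to 13620 in TPM, so its reads cannot be taken as the depth behind the TPM. In the CPM table, 8 of the 10 carboxylesterases were listed at 0 in all 4 libraries, *Ces3a* had 1 read in all and *Ces3b* had 6. This was so although 6 of the genes stood at 100 TPM or more in every library. Of all 682 genes at 100 TPM or more in every library, 428 were listed at 0 there. The TPM values were therefore used, and the CPM table gave no comparison of these genes.

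The most abundant carboxylesterase transcripts in liver were those of *Ces3a* and *Ces1c*. *Ces3a* averaged 666 ± 13.4 TPM in WT (SD, n = 2) and 809.9 ± 32.0 TPM in KO (SD, n = 2), and *Ces1c* averaged 704 ± 50.9 TPM in WT against 668 ± 112 TPM in KO (SD, n = 2 each). By mean level over the 4 libraries they ranked 126 and 132 among all genes. *Ces2a*, *Ces1d*, *Ces3b* and *Ces1f* followed with means over the 4 libraries of 189, 169, 149 and 114 TPM. *Ces1b*, *Ces2e*, *Ces1g* and *Ces1e* stood at 64.6, 60.8, 45.1 and 36.0 TPM. The order was not sharp: of the 9 steps from one gene to the next, the ranges of the 4 libraries were apart only from *Ces1c* to *Ces2a* and from *Ces1f* to *Ces1b*.

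**Figure D2:**
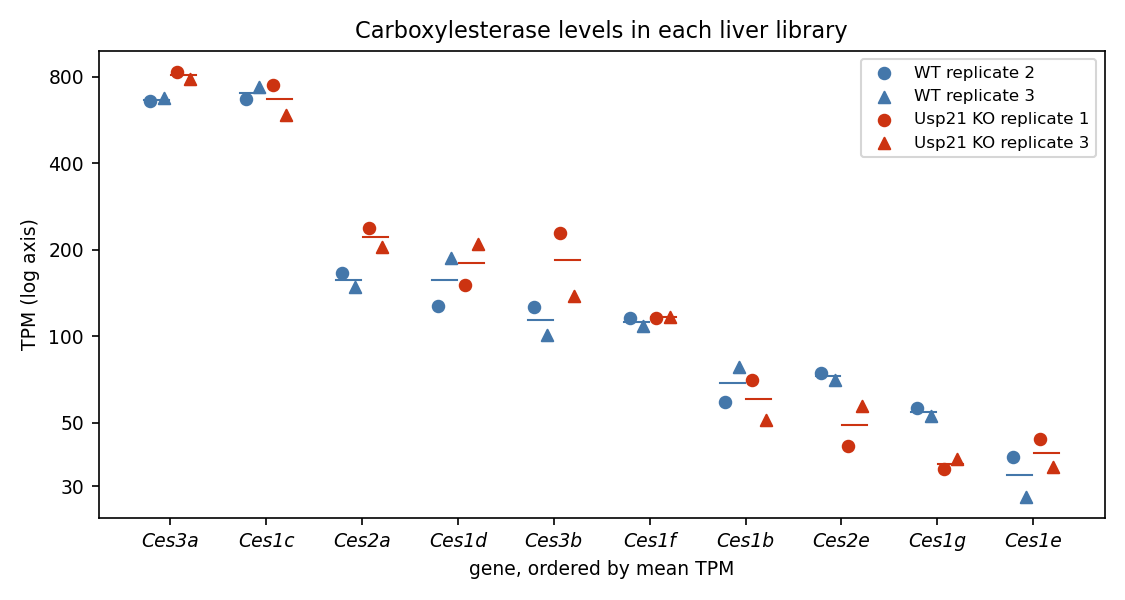
TPM (log axis) of the 10 genes in each of the 4 libraries, ordered by mean TPM, with WT in blue, *Usp21* KO in red and short lines at the group means. *Ces3a* and *Ces1c* stand apart at the top, both KO points lie above both WT points for *Ces3a*, *Ces2a* and *Ces3b*, and both lie below for *Ces2e* and *Ces1g*.

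The comparison of WT with *Usp21* KO livers addressed which hepatic genes depend on *Usp21*. Among the carboxylesterases, *Ces2a*, *Ces3a* and *Ces3b* were higher in TPM in both KO libraries than in both WT libraries, *Ces1g* and *Ces2e* were lower in both, and the other 5 genes overlapped. None of the 10 passed an adjusted p of 0.05 in limma with Benjamini-Hochberg (adjusted p from 0.464 to 0.914). At an unadjusted p under 0.05, 1 gene was higher (*Ces2a*) and 2 were lower (*Ces1g*, *Ces2e*). No gene reached a 2-fold difference. Of the 9581 genes tested, 0.0835% passed the adjusted threshold, 8.45% were higher and 2.04% lower at an unadjusted p under 0.05, and 3.68% differed by at least 2-fold. Groups were apart with KO higher for 34.4% of all tested genes and with KO lower for 10.9%, so the 3 of 10 higher and 2 of 10 lower are given as a description only. With any library left out, 1 group holds a single library and groups come apart more readily. Counts of groups apart in such settings therefore say nothing about stability. On recovered reads, edgeR and DESeq2 called 0 of the 2 carboxylesterases they could test, which had 1 and 6 reads in all and neither of which had an unadjusted p under 0.05. The labels number the mice of each genotype without naming a cage, day or batch, so the p-values measure the spread between these libraries.

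The median log2 fold change of the 10 genes was 0.13, compared with 0.15 over all tested genes, of which 6394 had a positive value. Scaling the libraries by their upper quartile moved the median over all genes to 0.04, and the median of the 10 genes to −0.003. It also moved the share of higher genes among those that differed at least 2-fold from 70.3% to 55.8%. Differences below are therefore given as deposited and, where it matters, after this scaling.

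**Figure D3:**
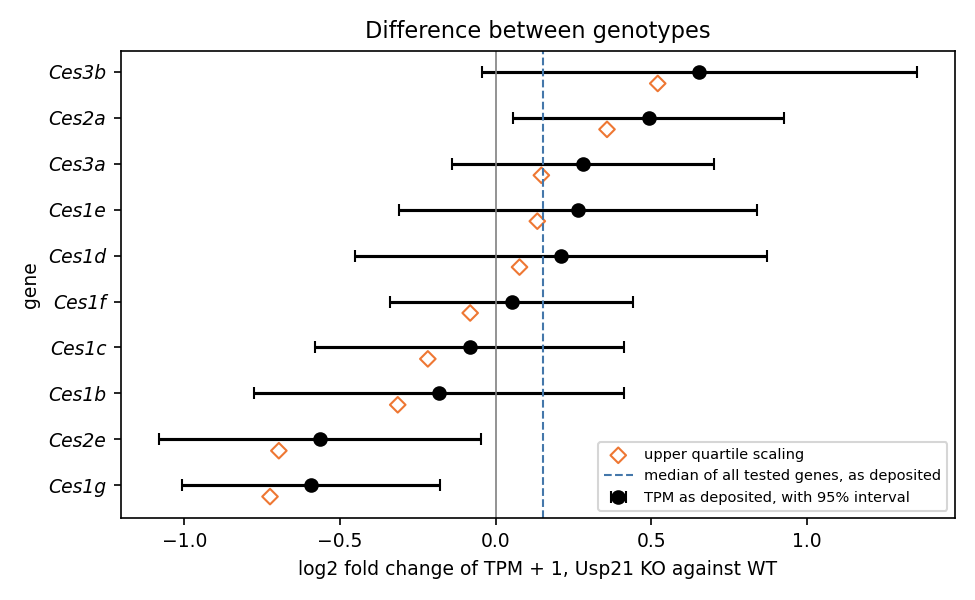
Log2 fold change of TPM + 1, *Usp21* KO against WT, for each gene as deposited (black, with the 95% interval from limma) and after upper quartile scaling (open diamonds), with the median of all tested genes as a dashed line. The intervals of *Ces2a*, *Ces2e* and *Ces1g* do not reach 0, and the direction of *Ces1f* turns with the scaling.

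Within *Ces1*, the largest difference belonged to *Ces1g*, which encodes an esterase held in the endoplasmic reticulum and active on lipid and drug esters. *Ces1g* stood at 56.3 and 52.6 TPM in WT and at 34.4 and 37.2 TPM in KO. Both KO libraries lay well below both WT libraries, and the libraries of a group lay close together. The log2 fold change was −0.59 ± 0.17 (SE, 95% interval −1.01 to −0.18, adjusted p = 0.464 by limma with Benjamini-Hochberg). After upper quartile scaling it was −0.72.

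*Ces1d*, the triacylglycerol hydrolase of the hepatocyte endoplasmic reticulum, shared 81.6% of its coding bases with *Ces1g*. It stood at 127 and 187 TPM in WT and at 151 and 209.8 TPM in KO. Replicates of one genotype differed more than the genotypes did, and the log2 fold change was 0.21 with a 95% interval from −0.45 to 0.87, and 0.08 after upper quartile scaling. *Ces1f*, another hydrolase of stored triglyceride, varied least: 116 and 109 TPM in WT against 116 and 117 TPM in KO. Its log2 fold change of 0.05 turned to −0.08 after upper quartile scaling, and its 95% interval of −0.34 to 0.44 lay within a 2-fold difference in either direction.

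*Ces1e*, also called egasyn, binds β-glucuronidase in the endoplasmic reticulum. Its levels were 37.9 and 27.6 TPM in WT against 43.7 and 34.9 TPM in KO, and the groups overlapped (log2 fold change 0.26 ± 0.23 SE, and 0.13 after upper quartile scaling). *Gusb*, the gene of β-glucuronidase, stood between 6.45 and 8.03 TPM with overlapping groups.

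*Ces1c* stood at 668 and 740.2 TPM in WT and at 747 and 589 TPM in KO. *Ces1b* stood at 59.1 and 78.2 TPM in WT and at 70.1 and 51.0 TPM in KO. KO replicate 3 was the lowest library for both genes and the groups overlapped, with log2 fold changes of −0.08 ± 0.20 and −0.18 ± 0.24 (SE), and of −0.22 and −0.31 after upper quartile scaling. Summed to set aside how shared reads were divided, they gave −0.09 ± 0.20 (SE). The ratio of *Ces1c* to *Ces1b* ran from 9.47 to 11.6 over the 4 libraries, a narrow range for a pair whose levels differed 10.6-fold.

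That difference in level stood beside similar upstream sequence. The 250 bases before the RefSeq start of *Ces1c* lay at chr8:93131284-93131533 (GRCm38.p6, minus strand), and those of *Ces1b* at chr8:93079941-93080190 (minus strand). *Ces1b* has 2 RefSeq starts, and the one used gave the longer alignment with the *Ces1c* window. It lay 77 bases inside the gene by GENCODE, so part of that window is annotated gene. The windows were 94.2% identical over 223 aligned bases, with gaps left out. Capitals mark runs of at least 10 bases found in both.
*Ces1c*: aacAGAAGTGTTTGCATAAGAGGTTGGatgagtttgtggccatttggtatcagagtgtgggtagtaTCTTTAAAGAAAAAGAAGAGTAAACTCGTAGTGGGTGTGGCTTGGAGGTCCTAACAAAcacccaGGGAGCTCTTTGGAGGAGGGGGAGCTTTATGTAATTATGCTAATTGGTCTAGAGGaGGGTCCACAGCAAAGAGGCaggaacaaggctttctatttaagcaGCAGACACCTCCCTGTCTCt
*Ces1b*: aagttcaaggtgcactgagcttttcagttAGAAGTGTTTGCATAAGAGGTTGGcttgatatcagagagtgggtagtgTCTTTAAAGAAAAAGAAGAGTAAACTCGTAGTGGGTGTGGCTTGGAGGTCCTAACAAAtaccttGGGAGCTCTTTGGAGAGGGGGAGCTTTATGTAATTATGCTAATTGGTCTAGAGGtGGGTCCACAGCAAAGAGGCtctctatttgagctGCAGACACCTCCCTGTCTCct
The capitals covered 70.0% of the *Ces1c* window and 69.6% of the *Ces1b* window. RefSeq windows were held for 7 of the 10 genes. Those of *Ces1d*, *Ces1f* and *Ces3a* were not used here.

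*Ces2a* and *Ces2e*, the *Ces2* genes chosen here, went opposite ways in TPM. *Ces2a* encodes an enzyme that hydrolyses glycerides and foreign esters. It stood at 165 and 148 TPM in WT and at 238 and 204 TPM in KO, so both KO libraries were higher. Its log2 fold change was 0.49 ± 0.17 (SE, 95% interval 0.06 to 0.93, adjusted p = 0.464 by limma with Benjamini-Hochberg), and 0.36 after upper quartile scaling.

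*Ces2e* stood at 74.1 and 70.5 TPM in WT and at 41.4 and 56.9 TPM in KO, so both KO libraries were lower. Its log2 fold change was −0.56 ± 0.21 (SE, 95% interval −1.08 to −0.05, adjusted p = 0.465 by limma with Benjamini-Hochberg), and −0.70 after scaling. Without KO replicate 1 it was −0.34 and without KO replicate 3 it was −0.79.

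The ratio of *Ces2a* to *Ces2e* within a library does not depend on how libraries are scaled. It was 2.23 and 2.10 in WT and 5.75 and 3.58 in KO, a difference of 1.07 on the log2 scale. This ratio was chosen after the values were seen. An exact two-sided permutation test over the 4 libraries gave p = 0.333, which is the smallest value that 2 against 2 allows.

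**Figure D4:**
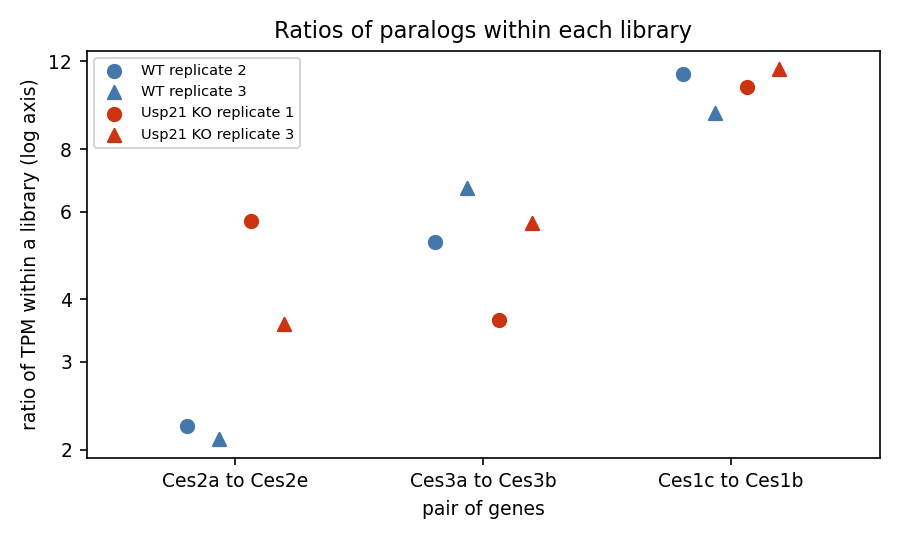
Ratio of TPM (log axis) within each library for 3 pairs of paralogs, WT in blue and *Usp21* KO in red. The ratio of *Ces2a* to *Ces2e* is 2.10 to 2.23 in WT and 3.58 to 5.75 in KO, while the groups overlap for the other pairs.

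The 250 bases before the RefSeq starts of *Ces2a* (GRCm38.p6, chr8:104733753-104734002, plus strand) and *Ces2e* (chr8:104926010-104926259, plus strand) are printed because these paralogs differed in direction. They were 69.9% identical over 216 aligned bases, with gaps left out, and capitals mark runs of at least 10 bases found in both. By the same measure, the other pairs among the 7 windows held were 54.3% to 65.4% identical, apart from *Ces1b* with *Ces1c*.
*Ces2a*: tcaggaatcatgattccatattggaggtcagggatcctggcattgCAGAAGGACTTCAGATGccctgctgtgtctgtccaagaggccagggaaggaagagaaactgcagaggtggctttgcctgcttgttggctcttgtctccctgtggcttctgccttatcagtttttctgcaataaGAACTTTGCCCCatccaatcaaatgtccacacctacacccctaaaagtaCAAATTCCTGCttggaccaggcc
*Ces2e*: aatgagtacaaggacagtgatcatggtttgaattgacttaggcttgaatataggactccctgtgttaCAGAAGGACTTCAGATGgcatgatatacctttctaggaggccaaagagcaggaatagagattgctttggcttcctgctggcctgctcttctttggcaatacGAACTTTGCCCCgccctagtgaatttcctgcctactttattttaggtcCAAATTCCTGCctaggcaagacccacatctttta
The shared runs covered 16.0% of each window. One of them held ACTTTG, the reverse complement of CAAAGT, the core of the element bound by the liver factor HNF4A. Searched on both strands, these letters occurred in 2 of the 7 windows held for the carboxylesterases, those of *Ces2a* and *Ces2e*, and in 12.6% of 32851 RefSeq windows of the same length. A match is a description of letters and not a bound site.

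Within *Ces3*, both genes were higher in TPM in the KO libraries. *Ces3a* stood at 657 and 676 TPM in WT and at 833 and 787 TPM in KO (log2 fold change 0.28 ± 0.17 SE, 95% interval −0.14 to 0.70), and its log2 fold change after upper quartile scaling was 0.15. *Ces3b* stood at 126 and 101 TPM in WT and at 229 and 138 TPM in KO. KO replicate 1 was far above the other libraries for *Ces3b*, and the log2 fold change of 0.65 ± 0.28 (SE, 95% interval −0.05 to 1.35) was 0.29 without that library and 1.01 without KO replicate 3. After upper quartile scaling it was 0.52. Because many of their 31-base words are shared, the pair was also summed, which gave 783 and 777 TPM in WT against 1061 and 926 TPM in KO. The summed pair had a log2 fold change of 0.35 ± 0.18 (SE, adjusted p = 0.517 by limma with Benjamini-Hochberg).

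As a family, the 10 genes summed to 2087 and 2189.7 TPM in WT and to 2503 and 2225 TPM in KO, between 0.209% and 0.251% of each library's TPM. The mean of the KO libraries was higher by 0.14 on the log2 scale, by 0.009 after upper quartile scaling and by 0.06 without KO replicate 1, and KO replicate 3 lay close to WT replicate 3 (for the values as deposited, exact two-sided permutation p = 0.333, the smallest possible). The *Ces1* genes summed to 1064 and 1194 TPM in WT and to 1162 and 1039 TPM in KO, with overlap. Their share of the family was 51.0% and 54.5% in WT and 46.4% and 46.7% in KO. The *Ces3* share was 37.5% and 35.5% in WT and 42.4% and 41.6% in KO. The *Ces2* share was 11.5% and 9.99% in WT and 11.2% and 11.7% in KO. Shares within a library do not depend on its scaling. Those of *Ces1* and *Ces3* did not overlap between genotypes, the shift amounting to a few percentage points. Both are parts of 1 total that they mostly fill, so they are not separate results, and the shares were not tested.

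**Figure D5:**
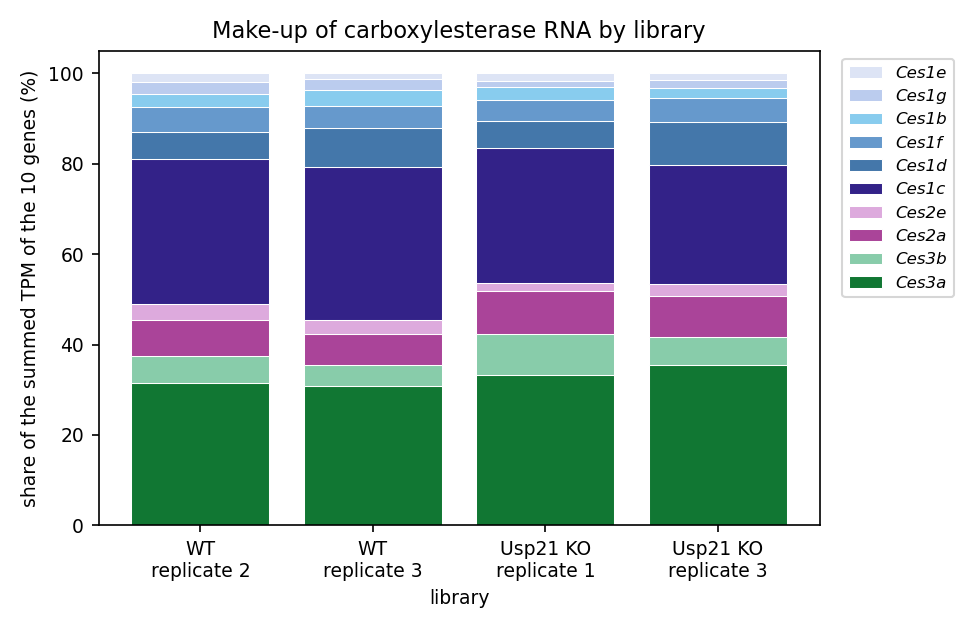
Share (%) of the summed TPM of the 10 genes held by each gene in the 4 libraries, with *Ces3* in green, *Ces2* in purple and *Ces1* in blue. *Ces3a* and *Ces1c* together fill most of each bar, and the *Ces3* share is 41.6% to 42.4% in KO and 35.5% to 37.5% in WT.

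Of 10 other carboxylesterase genes in the table, 2 passed the filter of a mean of 1 TPM and neither passed a test. *Ces2c* ranged from 25.7 to 31.1 TPM over the 4 libraries, and *Ces2g* at 11.7 and 10.8 TPM in WT against 8.68 and 9.62 TPM in KO. *Ces1a*, *Ces2b* and *Ces4a* lay under the filter, and *Ces1h*, *Ces2d-ps*, *Ces2f*, *Ces2h* and *Ces5a* were listed at 0 in all 4 libraries. Among tested protein-coding neighbours of the clusters named here, 0 passed the adjusted threshold in limma. The 2 with an unadjusted limma p under 0.05 flanked the *Ces2* and *Ces3* cluster: *Ciao2b*, at up to 12.7 TPM in WT against 18.8 and 17.4 TPM in KO, and *Cbfb*, at 5.05 and 4.43 TPM in WT against 9.20 and 7.74 TPM in KO. *Pdp2* and *D230025D16Rik*, 135 and 131 kb from that cluster, had log2 fold changes of 0.41 and 0.24. *Nudt21*, *Fto* and *Aktip* lay farther from the *Ces1* cluster, at 678, 1388 and 1857 kb, with log2 fold changes between −0.11 and 0.16.

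In the other lipid and ester pathways 0 genes passed the adjusted threshold, and counts here are at an unadjusted limma p under 0.05. At that p, 8.45% of all 9581 tested genes were higher in KO and 2.04% lower. Among 16 tested neutral lipid hydrolases and cofactors, 4 were higher in KO and 0 lower: *Lpl*, the lipase that acts on circulating lipoproteins (4.73 and 4.60 TPM in WT, 30.9 and 9.93 TPM in KO), *Abhd5*, the activator of adipose triglyceride lipase, and the phospholipases *Pnpla7* and *Pnpla8*. *Aadac*, an esterase of the hepatocyte endoplasmic reticulum, stood at 213 and 312 TPM in WT against 434 and 329 TPM in KO. Of 14 other ester hydrolases of foreign compounds 0 were higher and 2 lower, *Apeh* and *Cmbl*. Of 9 genes of triglyceride and cholesteryl ester synthesis, *Lpin1* was higher (10.3 and 23.1 TPM in WT, 52.5 and 54.8 TPM in KO) and *Dgat2* lower (188 and 181 TPM in WT, 134 and 136 TPM in KO). Of 13 genes of VLDL assembly, *Apob* was higher, at 554 and 622 TPM in WT against 896 and 794 TPM in KO. Of 8 retention receptors and lumen proteins of the endoplasmic reticulum, 0 differed at this p, and the most abundant, *Calr*, *Hspa5* and *Hsp90b1*, had log2 fold changes of 0.09, 0.49 and 0.37.

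Among 18 nuclear receptors and liver transcription factors, 1 was higher and 1 lower at an unadjusted limma p under 0.05. Over all tested genes the shares were 8.45% higher and 2.04% lower. *Hnf4a* stood at 112 and 105 TPM in WT and at 171 and 155 TPM in KO (log2 fold change 0.59 ± 0.16 SE, adjusted p = 0.464 by limma with Benjamini-Hochberg). *Srebf1*, the regulator of fatty acid synthesis, stood at 58.1 and 64.3 TPM in WT and at 27.3 and 20.7 TPM in KO (log2 fold change −1.32 ± 0.20 SE, adjusted p = 0.242 by limma with Benjamini-Hochberg). *Nr1i2* and *Nr1i3*, the foreign-compound receptors PXR and CAR, had log2 fold changes of −0.02 and −0.40.

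Markers of hepatocytes were high in every library, with *Alb* between 27475 and 43181 TPM, and their summed level was 84583 to 105375 TPM in WT against 74640 to 87257 TPM in KO. Of the 10 hepatocyte markers only *Tat* had an unadjusted limma p under 0.05, at 278 and 458 TPM in WT against 543 and 705 TPM in KO. In whole liver, fewer cells of a type and less RNA per cell cannot be told apart. Signs below are as deposited and not rescaled, and 6394 of all 9581 tested genes had a positive value. Pericentral hepatocyte genes had negative log2 fold changes in 9 of 9 tested, *Gulo* with an unadjusted limma p under 0.05, and summed to 4481 to 6426 TPM in WT against 4071 to 4389 TPM in KO. Periportal genes had positive values in 9 of 10, while the exception, *Alb* (log2 fold change −0.35), took most of their summed level of 37004 to 48371 TPM in WT and 32328 to 38082 TPM in KO. *Ass1* and *Arg1* were next in level. Stellate cell markers were positive in 8 of 8 tested (summed 87.7 to 122 TPM in WT, 119.6 to 181 TPM in KO, *Rgs5* with an unadjusted limma p under 0.05), and endothelial markers in 10 of 10 (58.1 to 73.7 TPM in WT, 67.8 to 85.9 TPM in KO, *Lyve1*). Kupffer cell markers were negative in 8 of 10 with *C1qa* and *C1qb* among the negative and *Clec4f* among the positive of the most abundant. They had sums of 220.3 to 258 TPM in WT against 118 TPM in KO replicate 1 and 299 TPM in KO replicate 3. The KO libraries thus lay on opposite sides of WT, and the signs do not describe both. Both tested cholangiocyte markers, with *Spp1*, and both tested lymphocyte markers, with *Ighm*, were positive, and 6 of 7 blood cell markers, with *Hba-a1*, were negative. Among lymphocyte markers under the filter, *Cd3e*, *Cd79a*, *Cd79b* and *Nkg7* had lower mean TPM in KO, and *Cd3d* and *Ms4a1* higher. *Plin1*, *Lep* and *Retn* of fat and *Alpi*, *Sis*, *Prss2*, *Cpa1*, *Pnlip* and *Amy2b* of gut and pancreas were at 0 throughout. Of the other fat, gut and pancreas markers, *Fabp2* stood at 21.4 to 48.3 TPM with overlapping groups, and *Cela2a*, *Cidec*, *Cfd*, *Adipoq*, *Vil1* and *Cdh17* stood at no more than 1.29 TPM in any library. The part of these markers in the carboxylesterase values was not tested.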

How the data were processed

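Liver RNA-seq libraries were grouped by the genotype in their labels, 2 from WT and 2 from *Usp21* KO mice. Per the file headers, the authors estimated levels with Salmon and deposited them as TPM per gene, and a second table deposited by the authors holds log2(TPM + 1), equal to the first within rounding. The authors also counted reads with HTSeq on mm10 and deposited TMM-normalized CPM, a count-based signal whose log2 form adds a constant. From this signal whole reads were recovered for 100% of values within 0.02 reads. Tool versions are not given in the sources used here. All columns of the 4 tables were mapped to a library, leaving 0 unused. For a count of 0, the limit of 3 reads is 20.0 to 27.7 CPM, which covers counting error only.

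The 9581 genes averaging 1 TPM or more were fitted on log2(TPM + 1) with limma 3.58.1 (lmFit, eBayes with trend) in R 4.3.3, two-sided, with Benjamini-Hochberg adjustment over all tested genes. Fold changes on this scale understate those of low genes. No batch, date or pairing was labelled. Alternatives were other pseudocounts, filters and scalings, leaving out each library, and edgeR 4.0.16 and DESeq2 1.42.0 on recovered reads. The fit was tested on simulated data. Sequences came from GENCODE M21 transcripts and RefSeq promoter windows and were aligned with Biopython 1.88 in Python 3.11.15. The genes and lists were chosen with earlier results of these data known. Genes named are the 10 carboxylesterases, other carboxylesterase genes, *Usp21*, the 2 nearest tested genes on each side of each cluster (1 is not reported here), and from each list those with an unadjusted p under 0.05, or the 3 most abundant where none had one. *Aadac*, *Gusb*, *Nr1i2* and *Nr1i3* and the markers of fat, gut and pancreas at 0 or low levels were named outside this rule. So were the lymphocyte markers under the filter.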

Additional observations from a re-analysis of the deposited data

How the results depend on the processing

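With other pseudocounts, filters or scalings of the TPM, 0 carboxylesterases passed the adjusted threshold. The count was also 0 in the 4 fits without one library and the fit without moderation, where 0 of all genes passed, and on CPM or recovered reads, where 2 carboxylesterases with few reads could be tested, so those fits say nothing about its stability. The counts apart between groups, 3 higher and 2 lower, ranged from 4 to 5 and from 2 to 4 when a library was left out. Each such setting leaves a single library in 1 group, where groups come apart more readily. The larger counts therefore say nothing about stability. On TMM-normalized CPM the carboxylesterases apart between groups were 0 higher and 0 lower. Their median log2 fold change was −0.0029 after upper quartile scaling, −0.10 on CPM, −1.23 in edgeR and −0.78 in DESeq2, the last 3 over the 2 genes with any reads (1 read of *Ces3a* and 6 of *Ces3b*), and 0.014 to 0.081 without one library. The summed TPM gave 0.06 to 0.23 without one library and 0.009 after upper quartile scaling. The sum on CPM gave 1.11, resting on the same 1 read of *Ces3a* and 6 of *Ces3b*. WT replicate 3 had 0 of these reads, so that value gives no comparison of the genotypes.

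Single genes changed sign as follows. With each library left out in turn, *Ces1b* ranged from −0.41 to 0.043 (0.017 without WT replicate 3, 0.043 without KO replicate 3), *Ces1c* from −0.25 to 0.087 (highest without KO replicate 3) and *Ces1d* from −0.067 (without WT replicate 2) to 0.49, with −0.025 when KO replicate 3 was left out. *Ces1f* was −0.082 after upper quartile scaling and −0.029 with equal totals without the 100 most abundant genes. *Ces3a* was −0.50 on CPM, −2.36 in edgeR and −1.52 in DESeq2, and *Ces3b* was −0.090 in edgeR and −0.042 in DESeq2. These values rest on 1 read of *Ces3a*, in WT replicate 2, and 6 reads of *Ces3b*, too few to give a direction. The cause of the other sign changes was not tested. *Ces1e*, *Ces1g*, *Ces2a*, *Ces2e*, *Ces3a* and *Ces3b* kept their direction in all 11 alternatives on TPM. Most of these could not have turned it. The filters and the fit without moderation leave a fold change as it was. For genes whose groups were apart, other pseudocounts and leaving out a library cannot turn the direction either, so only the scalings could. Summing *Ces3a* with *Ces3b* and *Ces1b* with *Ces1c* was chosen after seeing the data and turned no direction. No paired analysis was possible because the groups share only 1 replicate number. TPM keeps no depth, and with 2 libraries a group no exact permutation test can go below p = 0.333.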
